A study of Mus musculus with 25 samples.

Results

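Ribosome biogenesis and Myc are described here through 34 genes, chosen by name as a list of ribosome assembly factors with the transcription factor Myc. All 34 were found among the 46078 gene IDs of the deposited count table, and all 34 passed the filter on low counts that left 14703 genes for testing. The rule names the genes and uses no measured value of this table. However, the genes, their role groups and the further lists below were chosen with earlier results of these data known. By role the set holds Myc, 4 genes of RNA polymerase I transcription, 3 of the box C/D and 4 of the box H/ACA small nucleolar ribonucleoproteins (snoRNPs), 4 abundant nucleolar proteins, 8 factors of small subunit assembly and 10 of large subunit assembly.

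RNA-seq was done on 25 libraries of total RNA from CD4 T cells that had been sorted from wild-type, miR-150 knock-out or miR-150 knock-in mice on the C57BL/6NTac strain. Each genotype was sampled naive and at day 7 after induction of experimental autoimmune encephalomyelitis (EAE), a mouse model of multiple sclerosis. There were 5 libraries of wild-type day 7 cells and 4 of each of the other groups (wild-type naive, knock-out naive, knock-out day 7, knock-in naive and knock-in day 7). The alleles are labelled only ko and ki; the construct of the knock-in, its promoter and the cells in which it acts are not given in the sources used here, nor is whether each library stands for a mouse of its own. P-values therefore measure the spread between these libraries, which may be technical.

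In a growing cell, RNA polymerase I transcribes ribosomal RNA in the nucleolus, snoRNPs modify it, and a large set of assembly factors folds, cuts and joins it with ribosomal proteins into the small and large subunits. Myc raises transcription of many of these factors together with RNA polymerase I activity, and in T cells it is induced on antigen receptor stimulation, before the first divisions. The comparisons ask how far this growth program differed between naive cells and cells at day 7 of EAE, and between genotypes.

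Total counts ran from 6024043 to 49489134 per library. They were 6024043 to 9351180 in wild-type naive and 13917799 to 43640843 in knock-out naive libraries, without overlap. Knock-in naive libraries had 6454287 to 45739082, and at day 7 the ranges of the 3 genotypes overlapped. The part of sequencing depth in differences between genotypes was not tested. Mir150 itself had 0 counts in each of the 8 knock-out libraries, against 105 to 743 in the other 17. If counts were independent molecules, a count of 0 would allow up to 3 counts per library. Without molecular identifiers this is a rough bound only. The 7 CD4 T cell markers summed to 2050 to 2296 CPM (counts per 1e+06 counts of the library, scaled by TMM) in every library, so the labelled cell type was borne out by its defining markers, while both platelet markers were at 0 throughout. Markers of other cells were low: the summed level stayed at or under 21.4 CPM for CD8 T cells, 19.1 for gamma-delta T cells, 16.7 for B cells, 15.5 for myeloid cells, 10.3 for erythroid cells and 4.09 for NK cells. The share of counts in genes of ribosomal RNA type was 20.6 to 26.0% in naive and 22 to 32.6% in day 7 libraries. In wild-type cells it was 20.6 to 23.4% naive and 24.5 to 28.1% at day 7, without overlap. In knock-in cells it was 22.9 to 24.3% naive and 25.2 to 28.7% at day 7, again without overlap. In knock-out cells the stages overlapped, at 23.8 to 26.0% naive and 22 to 32.6% at day 7. Knock-out naive libraries lay above all wild-type naive ones, while at day 7 the genotypes overlapped. The part of this share in differences between genotypes was not tested. In bulk RNA, fewer cells expressing a gene and less RNA per cell cannot be told apart.

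Over all 25 libraries, naive and day 7 together, the 34 genes were expressed well as a set. Per exon length (RPKM, CPM divided by exon length in kilobases), their median level over all libraries was 12.8, against 4.32 for all genes tested. The highest per length were Npm1 (141.6 RPKM), which encodes the nucleolar chaperone nucleophosmin, Ncl (78.2 RPKM), which encodes nucleolin, and Tcof1 (52.5 RPKM), which encodes the RNA polymerase I cofactor treacle. The lowest were Nob1 (6.72 RPKM), the nuclease that forms the 3′ end of 18S ribosomal RNA, Polr1b (5.10 RPKM), the second largest subunit of RNA polymerase I, and Wdr12 (3.88 RPKM), which with Pes1 and Bop1 forms the PeBoW complex of large subunit assembly. Myc stood 10th of the 34, at 23.3 RPKM.

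**Figure D1:**
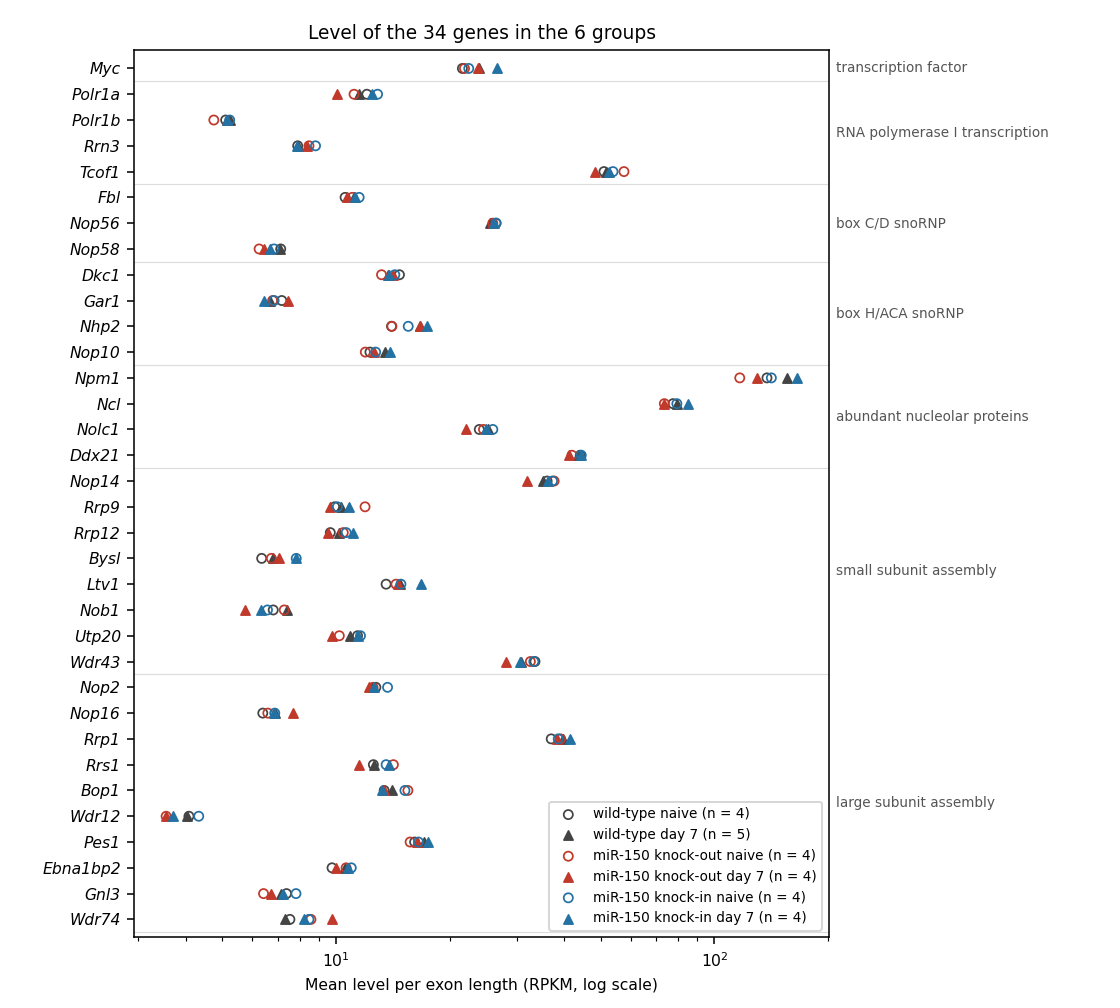
Mean level per exon length of the 34 genes in the 6 groups, on a log scale (RPKM; open circles are naive and filled triangles day 7, coloured by genotype; n = 4 or 5 libraries a group). Genes span from 3.88 RPKM for Wdr12 to 141.6 RPKM for Npm1 over all libraries, while the 6 group means of any 1 gene lie close together.

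Within a gene, the groups differed little. The ratio of the highest to the lowest of the 6 group means had a median of 1.18 over the 34 genes. It was smallest for Nop56, a core protein of box C/D snoRNPs, at 1.04, and largest for Npm1, at 1.42. The spread between libraries was small too: the median biological coefficient of variation from edgeR was 0.103 for the 34 genes, 0.167 for all genes tested, and 0.104 for the 7376 tested genes whose mean CPM lay in the range of the 34. The narrow spread was thus shared with other genes of that abundance.

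By day 7 no gene of the 34 passed the test (edgeR quasi-likelihood, Benjamini-Hochberg adjusted p under 0.05) within any 1 genotype, while 4 passed in the mean change over the 3 genotypes. In wild-type cells 0 of 34 were called, where 2.14% of all genes were. In knock-out cells 0 of 34 were called against 0.408% of all genes, and in knock-in cells 0 of 34 against 2.02%. At an unadjusted p under 0.05 the edgeR test gave 2 higher and 0 lower in wild-type cells, where 15.1% of all genes passed, 2 higher and 6 lower in knock-out cells (12.8% of all genes), and 2 higher and 1 lower in knock-in cells (15.1%). DESeq2 called 0, 1 and 1 of the 34 in these comparisons (Tcof1 in knock-out and Npm1 in knock-in cells), and limma voom called 0, 0 and 1 (Npm1).

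In the mean over the 3 genotypes, 4 of 34 genes were called, 3 higher and 1 lower, and 11.2% of all genes tested were (6.16% higher and 5.06% lower), so the share among the 34 was near the background. Npm1, Nhp2 and Myc rose and Wdr43 fell, all by less than 1.25-fold. The 95% interval of the change lay within 1.25-fold for 33 of the 34 genes (all but Nhp2), and within that bound for 85.2% of tested genes of the same CPM range. The median log2 fold change was -0.02 over the 34 and -0.0036 over all genes tested, with 15 of the 34 genes above 0, where 49% of all genes were.

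**Figure D2:**
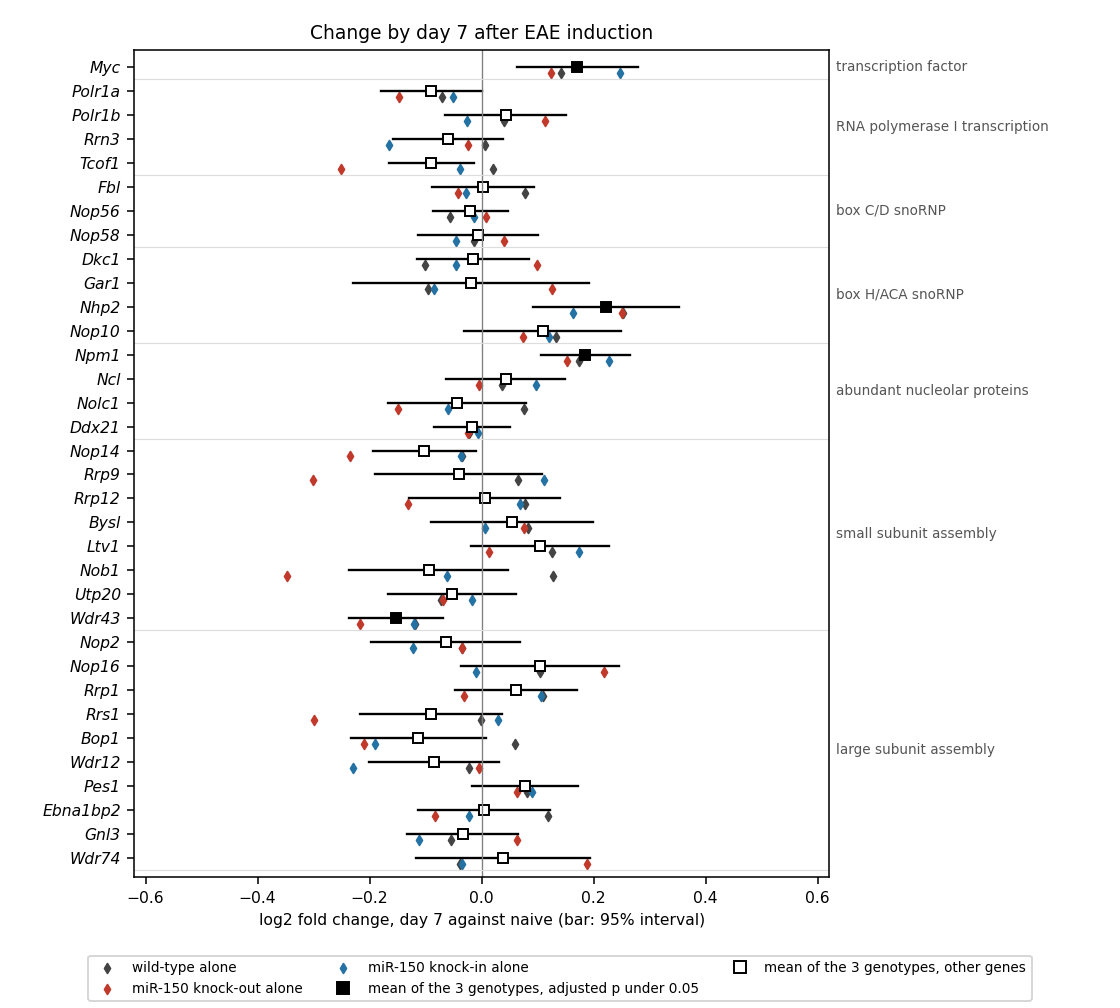
Log2 fold change of the 34 genes at day 7 against naive (squares: mean of the 3 genotypes with its 95% interval; filled squares passed the edgeR test; diamonds: each genotype alone, without its error). Myc, Nhp2, Npm1 and Wdr43 are the filled squares, and the knock-out diamonds of Nob1, Rrp9 and Rrs1 lie farthest to the left.

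Myc, the transcription factor (chromosome 15, 61985391 to 61990374, plus strand, mm10), was read in all libraries, with 345 to 3114 counts. In wild-type naive libraries it measured 54.2, 64.9, 51.2 and 64.1 CPM, and in wild-type day 7 libraries 57.6, 63.0, 65.1, 61.5 and 75.9 CPM. The groups overlapped, with 2 of the 5 day 7 libraries above every naive one. In knock-out cells the naive values were 57.7, 65.5, 51.2 and 63.0 CPM and the day 7 values 70.5, 56.4, 68.9 and 62.4 CPM, which overlapped likewise. In knock-in cells the naive values were 62.3, 68.0, 56.3 and 56.9 CPM and the day 7 values 77.1, 74.7, 70.0 and 67.3 CPM; here 3 of 4 day 7 libraries lay above every naive one. The group means ran from 58.6 ± 6.94 CPM (SD, n = 4) in wild-type naive cells through 59.3 ± 6.31 in knock-out naive, 60.9 ± 5.43 in knock-in naive, 64.5 ± 6.47 in knock-out day 7 and 64.6 ± 6.89 (n = 5) in wild-type day 7 to 72.3 ± 4.45 in knock-in day 7 cells. Each neighbour in that order differed by less than the SD of at least 1 of the groups except the last step, from 64.6 to 72.3 CPM, which was not past the test either (log2 0.16, SE 0.09, edgeR adjusted p = 0.999).

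The change of Myc by day 7 was 0.14 on the log2 scale in wild-type (SE 0.09), 0.12 in knock-out (SE 0.10) and 0.25 in knock-in cells (SE 0.10), with edgeR adjusted p of 0.528, 0.625 and 0.198. Over the 3 genotypes Myc rose 1.13-fold (log2 0.17, SE 0.06, edgeR adjusted p = 0.0429). That call was lost with limma voom (adjusted p = 0.0580) and with libraries blocked by number (adjusted p = 0.0639), and it held in 13 of the 25 fits that each left out 1 library. It was lost without wild-type naive replicates 1 or 3, wild-type day 7 replicate 5, knock-out naive 1 or 3, knock-out day 7 1 or 3, knock-in naive 1, 3 or 4, or knock-in day 7 1 or 2. The change did not differ between genotypes by test: knock-out minus wild-type was -0.02 (SE 0.13, edgeR adjusted p = 0.987) and knock-in minus wild-type 0.11 (SE 0.13, edgeR adjusted p = 0.999).

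Myc with its partner Max binds the E-box CACGTG, and the window from 250 bases before to 50 bases after the annotated start was searched for these letters in the RefSeq promoters of GRCm38.p6. The motif reads the same on both strands. Of the 34 genes, 27 had a promoter entry and 6 of these (22.2%) held it, against 2187 of 27025 genes (8.1%) in the whole table. The windows below are shown because they mark which members carry the letters: Rrn3, the initiation factor of RNA polymerase I, with 2 copies; Nop2, a ribosomal RNA methyltransferase; Pes1; and Wdr43, the gene of this set that fell by day 7. Ltv1 and Utp20, both of small subunit assembly, were the other two. Capitals mark the motif, and each line reads 5′ to 3′ on the plus strand of GRCm38.p6 (mm10), the strand of all 4 genes.
Rrn3 (chr16:13780472-13780501): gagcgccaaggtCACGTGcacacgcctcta
Rrn3 (chr16:13780639-13780668): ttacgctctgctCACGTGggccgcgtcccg
Nop2 (chr6:125131811-125131840): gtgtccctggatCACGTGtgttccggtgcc
Pes1 (chr11:3963965-3963994): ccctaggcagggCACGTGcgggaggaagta
Wdr43 (chr17:71616220-71616249): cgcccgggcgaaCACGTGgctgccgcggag
The motif began 48 bases before the RefSeq start in Rrn3, with the other copy further upstream, and 60 before it in Nop2, and 2 and 17 bases after it in Pes1 and Wdr43. The log2 changes of these 4 genes in the mean over genotypes were -0.06 (Rrn3, SE 0.05), -0.06 (Nop2, SE 0.07), 0.08 (Pes1, SE 0.05) and -0.15 (Wdr43, SE 0.04), so they did not share a direction. Of the genes that rose, Nhp2 had a promoter entry without the motif, and Npm1 and Myc were among the genes without an entry. A match is a description of these letters and no evidence of binding.

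RNA polymerase I genes did not pass the test at day 7 over the 3 genotypes. Polr1a, the catalytic subunit, differed by -0.09 on the log2 scale (SE 0.05), Polr1b by 0.04 (SE 0.06), Rrn3 by -0.06 (SE 0.05) and Tcof1 by -0.09 (SE 0.04, edgeR adjusted p = 0.140). Tcof1 had the smallest p of the 34 in knock-out cells alone. Its naive knock-out libraries measured 297, 301, 337 and 280 CPM and its day 7 knock-out libraries 270, 239, 243 and 269 CPM, without overlap. The difference was -0.25 on the log2 scale (SE 0.07, edgeR adjusted p = 0.0874), which did not pass. Without knock-out naive replicate 3, the highest of these libraries, it was -0.19. In wild-type cells Tcof1 measured 269 ± 9.22 CPM naive (SD, n = 4) and 272 ± 15.9 at day 7 (n = 5), and the difference of the changes, knock-out minus wild-type, was -0.27 (SE 0.09, edgeR adjusted p = 0.516).

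**Figure D3:**
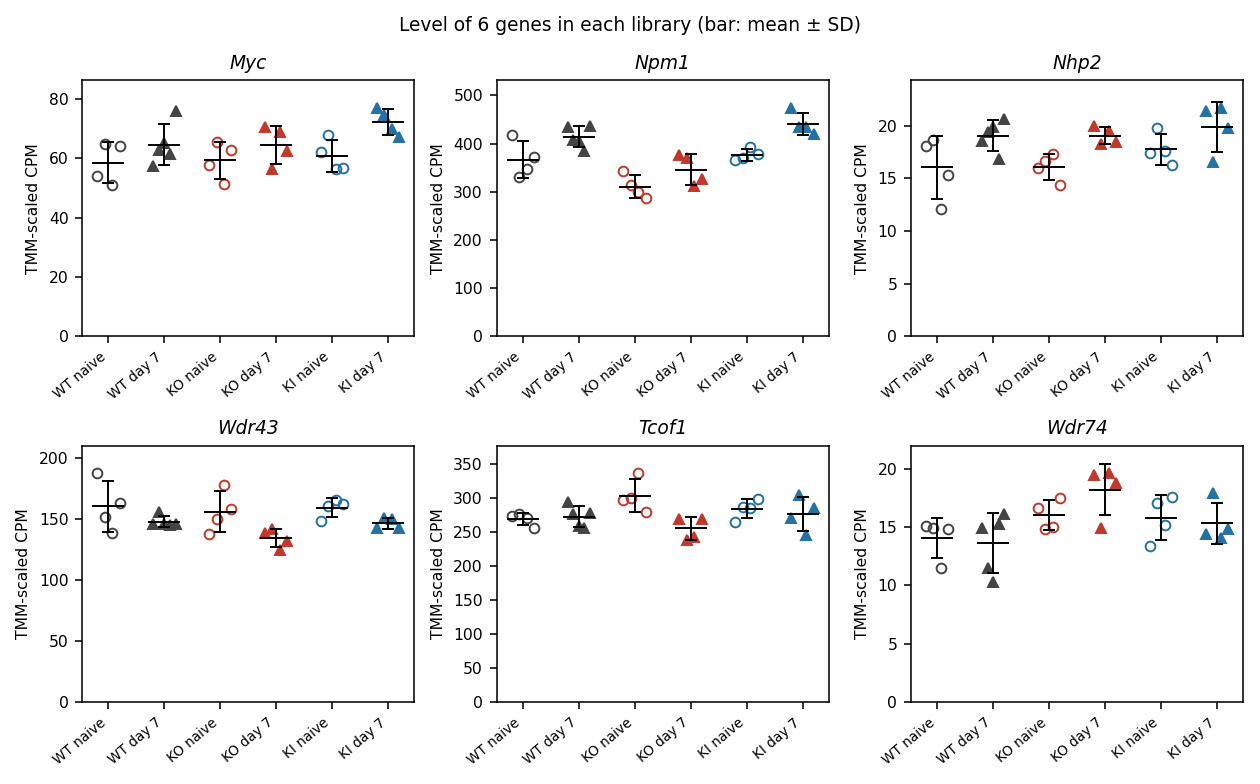
Level of Myc, Npm1, Nhp2, Wdr43, Tcof1 and Wdr74 in every library (TMM-scaled CPM; open circles naive, filled triangles day 7; WT wild-type, KO knock-out and KI knock-in; bar, mean ± SD, n = 4 or 5). The 4 knock-in day 7 libraries of Npm1, from 420 to 474 CPM, all stand above the 4 knock-in naive ones.

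The box C/D snoRNP genes, whose complexes guide methylation of ribosomal RNA, had day 7 values close to the naive ones. Over the 3 genotypes Fbl, the methyltransferase fibrillarin, differed by 0.00 (log2, SE 0.05), Nop56 by -0.02 (SE 0.03) and Nop58 by -0.01 (SE 0.05). Nop56 held between 93.6 and 114 CPM in all 25 libraries. Of the box H/ACA genes, whose complexes guide pseudouridylation, Dkc1, the pseudouridine synthase dyskerin, differed by -0.02 (SE 0.05), Gar1 by -0.02 (SE 0.11) and Nop10 by 0.11 (SE 0.07), none of them called.

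Nhp2, the fourth H/ACA protein, rose 1.17-fold over the 3 genotypes (log2 0.22, SE 0.07, edgeR adjusted p = 0.0292). It measured 18.1, 18.7, 12.1 and 15.4 CPM in wild-type naive and 18.6, 19.4, 19.9, 16.8 and 20.7 CPM in wild-type day 7 libraries, which overlapped. In knock-out cells the naive values of 16.03, 16.6, 17.3 and 14.4 CPM lay below all day 7 values of 19.96, 18.3, 19.5 and 18.5 CPM. In knock-in cells the naive values were 17.4, 19.8, 17.6 and 16.2 CPM and the day 7 values 21.4, 16.6, 21.7 and 19.8 CPM, again overlapping. The change alone in each genotype was 0.25, 0.25 and 0.16 in wild-type, knock-out and knock-in cells and was called in none. The call over the 3 genotypes was lost with no filter (adjusted p = 0.0933), with libraries blocked by number (adjusted p = 0.0619), and without wild-type naive replicates 3 or 4, knock-out naive 4, knock-in naive 4, or knock-in day 7 1 or 3. Nhp2 shares 44 exon bases with Rmnd5b on the opposite strand, and the strand setting of the counting is not given in the sources used here.

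Among the abundant nucleolar proteins Npm1 (chromosome 11, 33152287 to 33163206, minus strand, mm10) was the one that rose. It measured 417, 330, 347 and 373 CPM in wild-type naive libraries and 435, 407, 406, 385 and 435 CPM in wild-type day 7 libraries, with overlap through the first naive library. In knock-out cells it measured 342, 314, 299 and 288 CPM naive and 376, 369, 312 and 326 CPM at day 7, again overlapping. In knock-in cells it measured 367, 369, 393 and 378 CPM naive and 474, 435, 435 and 420 CPM at day 7, without overlap. The wild-type change was 0.17 on the log2 scale (SE 0.07, edgeR adjusted p = 0.198) and the knock-out change 0.15 (SE 0.07, edgeR adjusted p = 0.361). The knock-in change was 0.23 on the log2 scale (SE 0.07, edgeR adjusted p = 0.0948) and was not called; 4.7% of all genes had non-overlapping higher libraries in that comparison. Over the 3 genotypes the rise was 1.14-fold (log2 0.18, SE 0.04, edgeR adjusted p = 0.00318), and it stayed called in all 25 fits that each left out 1 library. Npm1 has processed pseudogenes, and how reads were divided among such copies is not given in the sources used here.

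Ncl, Nolc1 and Ddx21 did not pass. Ncl, the gene of the set with the most counts, differed by 0.04 (log2, SE 0.05), Nolc1, a chaperone of snoRNPs, by -0.04 (SE 0.06), and Ddx21, an RNA helicase of the nucleolus, by -0.02 (SE 0.03) over the 3 genotypes. Ncl, Nop56, Nop58, Dkc1, Wdr43 and Gnl3 host 19 annotated snoRNA genes between them. Some of these share exon bases with their host, so reads of the 2 kinds may be mixed in either count.

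Of the 8 small subunit genes, Wdr43, a component of the early processome, fell by 0.15 on the log2 scale over the 3 genotypes (SE 0.04, edgeR adjusted p = 0.0199), a call lost with libraries blocked by number (adjusted p = 0.0545). Its wild-type naive libraries measured 187, 152, 138 and 163 CPM and its wild-type day 7 libraries 146, 156, 146, 145 and 146 CPM. In knock-out cells it measured 138, 150, 178 and 158 CPM naive and 138, 142, 125 and 132 CPM at day 7, and in knock-in cells 148, 160, 166 and 162 CPM naive and 142, 150, 150 and 142 CPM at day 7. The groups overlapped in each genotype, and the highest library of each genotype was a naive one. The other 7 were not called: Nop14, a processome core protein, differed by -0.10 (SE 0.05), Nob1 by -0.09 (SE 0.07), Utp20, a large processome protein, by -0.05 (SE 0.06), Rrp9, a U3 snoRNP protein, by -0.04 (SE 0.08), Rrp12, an export factor, by 0.01 (SE 0.07), Bysl by 0.05 (SE 0.07) and Ltv1, needed for late 40S maturation, by 0.10 (SE 0.06).

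In knock-out cells alone, 6 of these 8 genes had a negative change by day 7 (50.5% of all genes did) and 4 were lower at an unadjusted p under 0.05 (6.81% of all genes), with a median of -0.17 over the 8. The 38 other small subunit factors did not share this: 19 were above and 19 below 0, 1 was lower at an unadjusted p under 0.05, and their median was 0.00013. The 4 genes were Wdr43 (-0.22, SE 0.08), Nop14 (-0.23, SE 0.08), Rrp9 (-0.30, SE 0.13) and Nob1 (-0.35, SE 0.13), and no one of them passed the adjusted test (edgeR adjusted p from 0.198 to 0.323). Knock-out naive replicate 3 held the highest value of its group for 16 of the 33 genes other than Myc. Wdr43, Nop14 and Nob1 were among those 16. Without that library the Wdr43 change was -0.14. Nob1 measured 24.2, 23.8, 27.3 and 26.3 CPM naive and 17.0, 19.4, 19.0 and 24.7 CPM at day 7 in knock-out cells, with 3 day 7 libraries below every naive one. In all, 5 of the 34 genes had knock-out libraries that did not overlap between stages: Tcof1, Nop14 and Rrs1 lower at day 7 (2.64% of all genes did so) and Nhp2 and Nop16 higher (2.43% of all genes). The median log2 change over the 34 in knock-out cells was -0.01, and 0.04 and -0.02 in wild-type and knock-in cells.

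None of the 10 large subunit genes was called at day 7. Over the 3 genotypes their changes ran from -0.11 for Bop1 (log2, SE 0.06) to 0.10 for Nop16 (SE 0.07). Between these lay Rrs1, which helps bring the 5S particle into the pre-60S subunit, at -0.09, Wdr12 at -0.09, Nop2 at -0.06, Gnl3, the GTPase nucleostemin, at -0.03, Ebna1bp2 at 0.00, Wdr74 at 0.04, Rrp1 at 0.06 and Pes1 at 0.08, with SEs of 0.05 to 0.08. The PeBoW genes thus did not share a sign: Pes1 was above 0, and Bop1 and Wdr12 were below. In knock-in cells alone, Wdr12 had the lowest value of the 34, at -0.23 (SE 0.10, edgeR adjusted p = 0.285).

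Across the 34 genes, exon length and the change by day 7 were set side by side. Pearson's r between log2 exon length and the log2 change over the 3 genotypes was -0.46 and Spearman's rho -0.38; over 14627 tested genes with a length the same values were -0.20 and -0.18. The points share their libraries and are genes, not replicates, so this is a description. Of the genes called, Nhp2 has 1146 exon bases, Npm1 2665, Myc 2717 and Wdr43 4775. Gar1 and Wdr74, with 1714 and 1867, were not called.

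Further genes of the same pathways, listed by function, also gave few calls over the 3 genotypes, where 11.2% of all genes were called. Of 12 other genes of the RNA polymerase I machinery 1 was higher, Polr1d (log2 0.18, SE 0.05), a subunit shared with RNA polymerase III. Of 38 tested small subunit factors 1 was higher, Imp3 (0.28, SE 0.07), and 1 lower, Wdr75 (-0.19, SE 0.05), both processome proteins. Of 42 large subunit factors 2 were higher, Zfp622 (0.31, SE 0.07) and Nop53 (0.21, SE 0.06), and 1 lower, Mdn1 (-0.14, SE 0.03), the large AAA ATPase that remodels the pre-60S particle. Of 13 genes of the exosome and related nucleases, which trim ribosomal RNA, edgeR called 0, with 2 higher at an unadjusted p under 0.05. The medians of the 4 lists were -0.01, -0.02, -0.02 and -0.07.

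Some Myc targets outside ribosome assembly were called higher. Among 20 growth and metabolism genes known as Myc targets, 3 rose over the 3 genotypes and 0 fell, with a median of 0.06. Of all genes, 6.16% were called higher and 5.06% lower. The 3 were Odc1, the first enzyme of polyamine synthesis (log2 0.72, SE 0.10, edgeR adjusted p = 2.6e-05), Shmt2, the mitochondrial serine hydroxymethyltransferase (0.54, SE 0.06), and Pa2g4 (0.17, SE 0.04). At an unadjusted p under 0.05 the edgeR test gave 8 higher and 0 lower, where 12.9% of all genes were higher and 11.5% lower. Shmt2 went from 34.9 ± 2.49 CPM (SD, n = 4) in wild-type naive to 58.7 ± 9.89 CPM (n = 5) in wild-type day 7 cells, a change of 0.76 (SE 0.11). It was the 1 gene of the 20 called within wild-type cells, where 1.18% of all genes were called higher. Shmt2 passed in knock-in cells too (0.61, SE 0.11). Odc1 went from 20.8 ± 2.98 to 40.9 ± 14.9 CPM (n = 4 each) in knock-in cells (0.98, SE 0.18), which also passed. In knock-out cells alone edgeR called 0 of the 20, where 0.408% of all genes were called. At an unadjusted p under 0.05, 3 were higher (6.03% of all genes) and 0 lower. There Odc1 was at 0.56 (SE 0.18) and Shmt2 at 0.26 (SE 0.11). Of the 9 tested genes of the Myc network, Mxd4 and Mga, which encode proteins that compete with Myc for Max, were lower (-0.25, SE 0.05, and -0.12, SE 0.03) and 0 were higher, where 5.06% of all genes were called lower. Mxd4 fell by 0.47 (SE 0.09, edgeR adjusted p = 0.00383) in knock-in cells alone.

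Proliferation genes moved with the stage, too. All 15 listed had a positive change over the 3 genotypes (49% of all genes did), 10 were called higher (6.16% of all genes), and the median was 1.17 on the log2 scale. Their summed level was 155 to 257 CPM in the 12 naive and 147 to 607 CPM in the 13 day 7 libraries, highest in knock-out day 7 replicate 2 (607 CPM) and knock-in day 7 replicate 1 (532 CPM). Npm1 and Wdr43 stayed called without either of these libraries. Without knock-in day 7 replicate 1, Myc (edgeR adjusted p = 0.0828) and Nhp2 (edgeR adjusted p = 0.0595) did not pass, and 2 of the 34 were called instead of 4. The gamma-delta T cell markers, Trdc and Tcrg-C1, summed to 12.4 to 19.1 CPM in naive and 6.61 to 13.2 CPM in day 7 libraries. The part of these values, and of the ribosomal RNA share above, in the 4 calls was not tested.

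**Figure D4:**
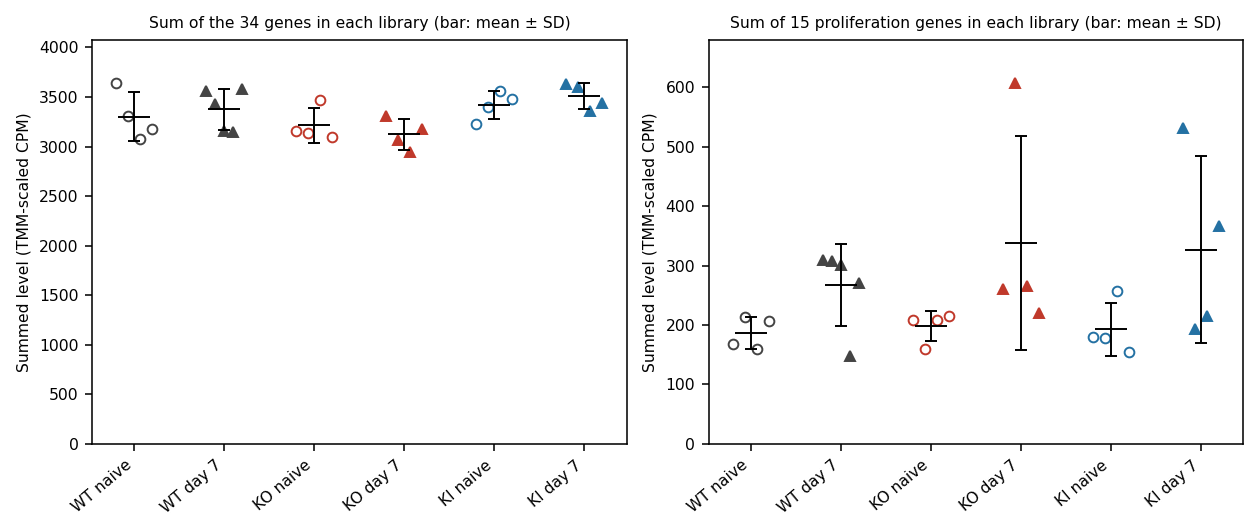
Summed level of the 34 genes (left) and of 15 proliferation genes (right) in each library (TMM-scaled CPM; open circles naive, filled triangles day 7; WT wild-type, KO knock-out and KI knock-in; bar, mean ± SD, n = 4 or 5). The sum of the 34 stays between 2940 and 3642 CPM in all libraries, while the proliferation sum reaches 607 CPM in 1 knock-out and 532 CPM in 1 knock-in day 7 library.

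Between genotypes no gene of the 34 was called at either stage. Knock-out against wild-type gave 0 of 34 in naive cells, where 0.0204% of all genes were called, and 0 of 34 at day 7, where 0.0476% were. Knock-in against wild-type gave 0 of 34 in naive cells against 0.0136%, and 0 of 34 at day 7 against 0%. At an unadjusted p under 0.05 the edgeR test gave 1 higher and 2 lower, 1 higher and 3 lower, 1 higher and 0 lower, and 0 in either direction in these 4 comparisons, where 7.55%, 9.45%, 2.26% and 4.65% of all genes passed. DESeq2 called 0 of 34 in all of them except knock-out against wild-type at day 7, where it called 1, Npm1, and limma voom called 0 in all 4.

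Npm1 had the smallest p of the 34 in knock-out cells at both stages. Against wild-type it differed by -0.24 (log2, SE 0.07, edgeR adjusted p = 0.399) in naive cells and by -0.26 (SE 0.07, edgeR adjusted p = 0.155) at day 7. At day 7 the 4 knock-out libraries, at 312 to 376 CPM, lay below all 5 wild-type libraries, at 385 to 435 CPM. In naive cells the libraries overlapped for Npm1; those of Tcof1 lay above wild-type in knock-out cells without overlap (0.18, SE 0.07, edgeR adjusted p = 0.542), and those of Nop58 below, as for 2.54% and 2.18% of all genes. At day 7 Polr1a and Wdr43 also had non-overlapping lower knock-out libraries there, which 0.945% of all genes had; Polr1a differed by -0.19 (SE 0.08, edgeR adjusted p = 0.400). In the mean of the 2 stages, a comparison added after the data had been seen, Npm1 was lower in knock-out cells by 1.19-fold (log2 -0.25, SE 0.05, edgeR adjusted p = 0.0228), as 1 of 34 genes where 0.17% of all were called. That call was lost when only the groups compared were fitted (adjusted p = 0.0907), with libraries blocked by number (adjusted p = 0.113) and without any 1 of 6 libraries. Knock-in against wild-type in the same mean gave 0 of 34 against 0%, with 1 higher, Bysl, at an unadjusted p under 0.05 (3.15% of all genes) and 0 by DESeq2 or limma voom.

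**Figure D5:**
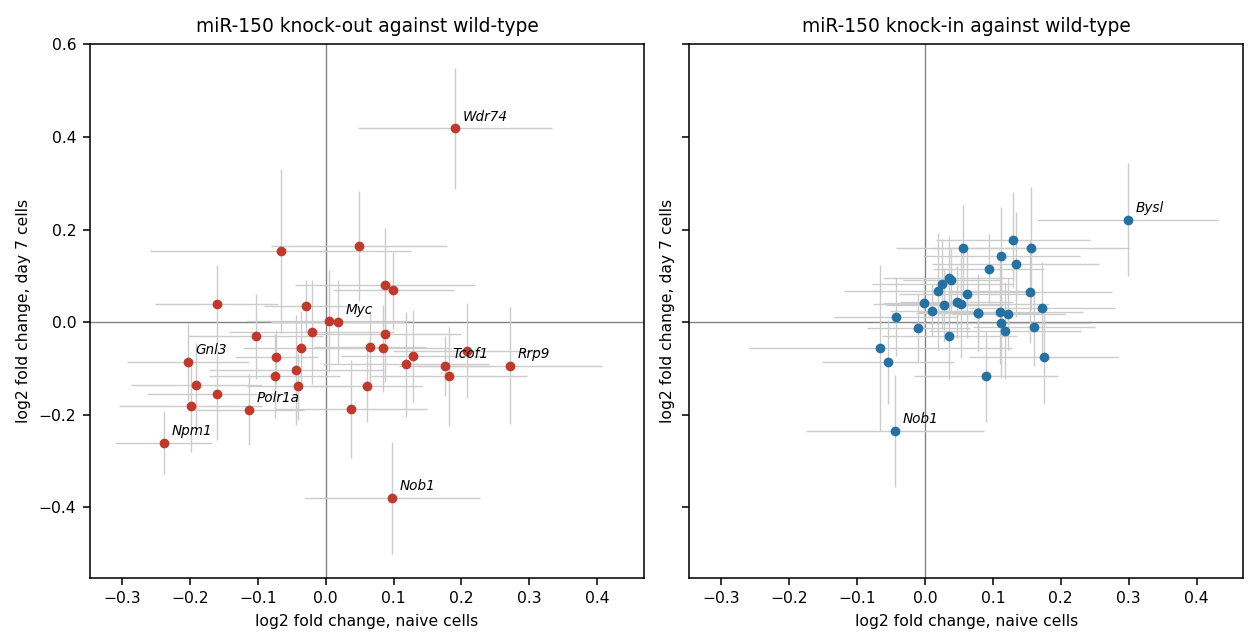
Log2 fold change against wild-type in naive cells (x axis) and at day 7 (y axis) for the 34 genes, knock-out left and knock-in right (grey bars: 1 SE; n = 4 or 5 libraries a group). No point passed the edgeR test at either stage; in knock-out cells Npm1 lies farthest to the left, and Wdr74 is the highest and Nob1 the lowest at day 7.

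Wdr74 and Nob1 had the largest differences from wild-type in knock-out cells at day 7. Wdr74, a factor of large subunit assembly that acts with the ATPase Nvl, measured 19.5, 14.97, 19.6 and 18.8 CPM in knock-out and 14.9, 11.5, 10.3, 15.3 and 16.1 CPM in wild-type day 7 libraries (log2 0.42, SE 0.13, edgeR adjusted p = 0.242). Only the second knock-out library fell within the wild-type range. Nob1 measured 17.0, 19.4, 19.0 and 24.7 CPM in knock-out and 30.04, 23.2, 20.3, 28.0 and 28.0 CPM in wild-type day 7 libraries (log2 -0.38, SE 0.12, edgeR adjusted p = 0.250), with 3 knock-out libraries below all wild-type ones. In naive cells Nob1 was at 0.10 (SE 0.13), and the difference of its changes by day 7, knock-out minus wild-type, was -0.48 (SE 0.18, edgeR adjusted p = 0.531).

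In knock-in cells Bysl, a factor of small subunit assembly, had the largest difference in naive cells, at 0.30 (log2, SE 0.13, edgeR adjusted p = 0.9995), with 25.5, 29.7, 32.1 and 33.5 CPM against 26.2, 24.8, 23.3 and 23.6 CPM in wild-type naive libraries. Of the knock-in libraries 3 lay above all wild-type ones. Rrn3 had the next smallest p, at 0.16 (SE 0.09, edgeR adjusted p = 0.9995). At day 7 Bysl was at 0.22 (SE 0.12), and Nob1 at -0.23 (SE 0.12), neither called (edgeR adjusted p = 0.999 for both). Bysl shares 361 exon bases with Ccnd3 on the opposite strand. Myc differed by 0.02 (SE 0.10) and 0.00 (SE 0.09) in knock-out and by 0.06 (SE 0.10) and 0.16 (SE 0.09) in knock-in cells, naive and at day 7.

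The signs of the genotype differences were uneven in some comparisons. In knock-out cells at day 7, 25 of 34 lay below wild-type, with a median of -0.07, where 50.4% of all genes did; these included all 4 abundant nucleolar proteins, 3 of 4 RNA polymerase I, 2 of 3 box C/D, 7 of 8 small subunit and 8 of 10 large subunit genes, while 3 of 4 box H/ACA genes lay above wild-type. In knock-in naive cells 28 of 34 lay above wild-type, with a median of 0.07, where 49.7% of all genes did; these included all 4 RNA polymerase I genes, all 4 abundant nucleolar proteins, all 10 large subunit and 6 of 8 small subunit genes, but 1 of 3 box C/D and 2 of 4 box H/ACA genes. At day 7, 24 of 34 did, with a median of 0.03 (50.9% of all genes). The 2 stages of 1 comparison have no library in common, but knock-out and knock-in at 1 stage share the wild-type group. In knock-out naive cells the split was 18 above and 16 below. Single libraries also stood to 1 side: the first wild-type naive library held the highest value of its group for 18 of the 33 genes other than Myc, and the first knock-in naive library the lowest for 19. The mean of log2(CPM + 1) over these 33 genes ran from 5.70 to 5.91 over the 25 libraries, and group means from 5.76 ± 0.050 in knock-out day 7 to 5.87 ± 0.048 in knock-in naive cells (SD, n = 4 each).

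The intervals bound what these libraries could have missed. In wild-type cells the 95% interval of the day 7 change lay within 1.5-fold for 34 of 34 genes and within 1.25-fold for 26; in the same CPM range 91.4% and 55.2% of tested genes did so. In knock-out cells 33 of 34 lay within 1.5-fold (all but Nob1) and 20 within 1.25-fold, against 92.4% and 55.9% of that range. In knock-in cells 34 and 23 did, against 91.4% and 53.2%. Against wild-type at day 7, 32 of 34 lay within 1.5-fold in knock-out cells (all but Nob1 and Wdr74) and 34 of 34 in knock-in cells. The shares of that range were 94.5% and 96.4%. Within 1.25-fold lay 22 and 26, against 62.5% and 67.8%. For the difference of the day 7 changes between genotypes the bound was looser: 29 of 34 (knock-out) and 34 of 34 (knock-in) lay within 1.5-fold. In the same CPM range 79.4% and 84.2% did so. Within 1.25-fold lay 13 of 34 in either difference, against 27.7% and 32.9%. No gene of the 34 was called in either difference, as 0% of all genes were; edgeR gave 2 lower at an unadjusted p under 0.05 for the knock-out (7.79% of all genes) and 0 for the knock-in (3.8%), and DESeq2 and limma voom called 0. For the knock-in the smallest p were those of Bop1 (-0.25, SE 0.15) and Wdr12 (-0.21, SE 0.14), with an edgeR adjusted p of 0.999 for both.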

How the data were processed

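Total RNA of 25 libraries of sorted CD4 T cells was sequenced after miRNeasy extraction and SMARTer Stranded Total RNA-Seq Pico preparation, per the labels' protocols. The deposited values are raw read counts per Ensembl gene; mm10 and DESeq2 are named per the submitters' processing notes, while aligner, counter, strand setting and annotation are not given in the sources used here. Symbols, positions and exon lengths were taken from GENCODE M21 (45229 of 46078 IDs matched, all 34 members among them). Genes were filtered with filterByExpr (minimum count 10, minimum total 15) and scaled by TMM, and 14703 genes of all 25 libraries were fitted in edgeR 4.0.16 (R 4.3.3) with 1 mean per group and a quasi-likelihood test, two-sided, adjusted by Benjamini-Hochberg over all genes at 0.05. The SE is the log2 fold change over the square root of F, and intervals are 1.96 SE to each side. Counting intervals were not used for levels or changes, since counts without molecular identifiers are not independent molecules. Changes between groups that passed are called. Limma voom (limma 3.58.1), DESeq2 1.42.0, other scalings and filters, a block and the omission of each library were the alternatives. The procedure was tested on simulated data. No pair of libraries in a group agreed within counting noise (smallest chi-square per degree of freedom 5.40). Members, role groups and lists were chosen with earlier results of these data known. The named genes were Myc, the members called, otherwise the 2 with the smallest p, the 3 highest and 3 lowest per length, and up to 3 called genes of each further list; other members are named for completeness, and those with values in every library that were not called were chosen after their values were seen.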

Additional observations from a re-analysis of the deposited data

Results flagged for a closer look

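In 9 of 210 group values examined (34 genes and the member mean in 6 groups), 1 library stood apart from the others of its group by Dixon's test at the 95% level, which chance gives in about 1 in 20 groups. The higher ones were Gar1 in knock-out day 7 replicate 1 (17.2 CPM, the others 10.7 to 11.8), Nop10 in wild-type naive replicate 4 (17.1, the others 12.2 to 12.6), Nolc1 in knock-out naive replicate 3 (120.0, the others 87.3 to 92.2) and Nop14 in the same library (125.8, the others 92.3 to 97.0). Also higher were Rrp12 in knock-in day 7 replicate 2 (56.3, the others 44.5 to 46.3), Wdr43 in wild-type day 7 replicate 2 (155.7, the others 144.7 to 146.1) and Bop1 in wild-type naive replicate 2 (48.2, the others 36.4 to 37.3). The lower ones were Utp20 in knock-out day 7 replicate 3 (69.4, the others 108.3 to 111.1) and Wdr74 in wild-type naive replicate 3 (11.5, the others 14.8 to 15.1).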

How the results depend on the processing

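The labels give each library its own number. No paired analysis was possible because the labels give no replicate number shared between groups. A block that grouped the libraries by number, 4 in a row at a time, was fitted instead. Wild-type day 7 replicate 5, the library with the last number, was alone in its block. The block fit thus also took that library out of the comparisons, and the part of each was not tested. The medians of the 34 genes moved by less than the SD between libraries (0.0655) in all alternatives. Most of the medians were smaller than that SD, so the sign of some changed within it. With 1 library left out, the median for knock-out against wild-type in naive cells ran from -0.040 to 0.055. For day 7 against naive in knock-out cells it ran from -0.041 to 0.011. In the mean of the 3 genotypes, the number of members called was 1 with the block, where Npm1 was kept, and 2 to 4 when 1 library was left out; it was 2 without wild-type naive replicate 3, knock-in naive replicate 4 or knock-in day 7 replicate 1. Myc lost its call with limma voom (adjusted p 0.0580), the block (0.0639) and 12 of 25 libraries left out (0.0218 to 0.0914 over all 25), Nhp2 with no filter (0.0933), the block (0.0619) and 6 of 25 (0.0128 to 0.0644), and Wdr43 with the block (0.0545). Npm1 kept its call in all of these (0.000916 to 0.00828 with 1 library left out). In knock-out cells 1 member, Tcof1, was called by day 7 with DESeq2 (adjusted p 0.0317) and with no filter (0.0373). In knock-in cells 1, Npm1, was called with DESeq2 (0.0333), limma voom (0.0332) and only the groups compared (0.0377). Against wild-type at day 7, 1, Npm1, was called lower in knock-out cells with DESeq2 (0.0282) and no filter (0.0199). In the mean of the 2 stages this call became 0 with the block (0.113) and with only the groups compared (0.0907), and 0 to 1 without 1 library (0.0168 to 0.0709), being 0 without wild-type naive replicates 1 or 4, knock-out naive 3 or 4, or knock-out day 7 replicates 3 or 4. There the count over all genes was 25, against 96 with DESeq2, 266 with no filter, 10 with the block and 14 with only the groups compared. The cause of these differences was not tested.

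The sign of small values of Myc changed: knock-out against wild-type at day 7 was -0.0782 with limma voom, -0.00117 with no filter, -0.00048 with the stricter filter, -0.00076 without ribosomal, mitochondrial and haemoglobin genes, and -0.0440 to 0.0665 with 1 library left out. In naive cells it was -0.0425 to 0.0820 (knock-out) and -0.00442 to 0.11 (knock-in) with 1 library left out. Its knock-out minus wild-type change was 0.0407 with the block and -0.0808 to 0.0482 with 1 library left out, and its mean of the 2 stages in knock-out cells -0.00639 with limma voom and -0.0214 to 0.0424 with 1 library left out. Gar1 in knock-in naive cells against wild-type was 0.11 with the block and -0.18 to 0.0526 with 1 library left out.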
